A study of Mus musculus with 6 samples.

Results

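Chemerin and its receptors are described here as 4 genes, Rarres2, Cmklr1, Ccrl2 and Gpr1, taken by symbol from the 55367 symbols of the deposited count table and followed through all 6 libraries. They were chosen with their values in these libraries known, so their levels and differences are a description and carry no p-value. The cells belonged to a line of mouse fibroblastic reticular cells (FRCs), which are fibroblasts that form the conduit network of lymph nodes, and genotype and strain are not given in the labels. They spent 96 h, with fresh medium every 48 h, in 1 of 3 media that other cultures had conditioned for 24 h and that received 2% serum and antibiotics: medium of 4T1 cells, medium of 67NR cells, or control medium from the FRC line itself. 4T1 and 67NR are mouse mammary carcinoma lines of common origin, known as metastatic and as non-metastatic. Each medium has 2 libraries, and nothing in the labels says that these came from separate cultures, so every test below measures only the spread between the libraries, which may be technical. The cells are 1 line under 1 culture condition, not lymph node tissue.

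Chemerin, the product of Rarres2, is secreted as a precursor with little activity and becomes a chemoattractant when proteases such as plasmin, neutrophil elastase or cathepsins trim its C-terminus. CMKLR1 is its main signalling receptor, a receptor coupled to inhibitory G proteins that is known from macrophages, plasmacytoid dendritic cells and natural killer cells. CCRL2 binds chemerin without signalling and can hold it at the cell surface for neighbouring cells, and GPR1 is a further receptor. Chemerin is also known as an adipokine, and Rarres2 takes its name from its response to retinoids in skin cells.

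In units of 1e6 counts (M), library totals were 14.5 and 18.2 M in 4T1 medium, 21.8 and 20.9 M in 67NR medium, and 19.3 and 13.6 M in control medium. A single count was worth 0.0463 to 0.0743 counts per 1e6 counts (CPM). Of the 4 genes only Cmklr1 passed the filter on low counts, which left 15055 genes, and only Cmklr1 stands in the filtered table that the authors also deposited. The FRC markers Pdpn, Pdgfrb and Col1a1 were present in all libraries, while Thy1, Ccl19 and Ccl21a had 0 counts. Of 15 markers of leukocytes known to carry CMKLR1, 6 had 0 counts in all libraries, among them Adgre1, Siglech, Ncr1 and Tyrobp, and the pan-leukocyte gene Ptprc had 1 count in all. The CPM of these 15 markers summed to 5.07 to 5.39 in 4T1 medium, 11.6 to 12.7 in 67NR medium and 7.16 to 8.47 in control medium. Csf1r, Cd68 and Lyz2 had counts in all 6 libraries, 210, 94 and 615 in all, and were the 3 tested. Most of the sum in 67NR medium was Lyz2, at 9.13 and 8.86 CPM. Lyz2 had 1.89 and 2.18 CPM in 4T1 medium, and 4.62 and 5.87 CPM in control medium. Of the 3 tested markers 1, Lyz2, fell in 4T1 medium against control, by a log2 value of -1.33, and 1, also Lyz2, rose in 67NR medium. Of 9 epithelial markers 4 had 0 counts, Epcam among them, and the list summed to 0.218 to 0.811 CPM in 4T1 medium, 1.58 to 1.7 CPM in 67NR medium and 2.01 to 2.39 CPM in control medium. Most of the sum in 67NR and control medium was Cdh1, at 1.3 and 1.07 CPM and at 1.61 and 1.26 CPM. Cdh1 had 0.406 and 0.0545 CPM in 4T1 medium. It was the 1 epithelial marker tested, and it fell in 4T1 medium against control, by a log2 value of -2.74. The 8 endothelial markers, with Prox1 at 0 counts, summed to 34.6 to 35.8 CPM in 4T1 medium, 23.8 to 26.7 CPM in 67NR medium and 14.3 to 16.2 CPM in control medium. Most of that sum was Emcn, at 34.7 and 33.4 CPM in 4T1 medium, 22.9 and 20.3 CPM in 67NR medium, and 11.7 and 12.6 CPM in control medium. Of the 4 tested endothelial markers 1 rose and 2 fell in 4T1 medium against control, Kdr and Tek, with a median log2 fold change of -1.02. In that comparison 19.9% of all tested genes rose and 19.2% fell. The 16 FRC and stroma markers summed to 19300 to 19700 CPM in 4T1 medium, 30300 to 31900 CPM in 67NR medium and 25500 to 26400 CPM in control medium. A large part of that sum was Col1a1, at 6720 and 7100 CPM in 4T1 medium, 15600 and 14800 CPM in 67NR medium, and 14100 and 13500 CPM in control medium. Of the 12 tested FRC and stroma markers 4 rose and 5 fell in 4T1 medium against control, with a median log2 fold change of -0.249. Mitochondrial transcripts took 2.11 to 2.37% of counts in 4T1 medium, 1.96 to 2.28% in 67NR medium and 1.32 to 1.87% in control medium. The part of these differences in the results was not tested.

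Cmklr1 was the one gene of the 4 with a measurable level, and it was low in 4T1 medium. It had 19 and 42 counts in the 4T1 libraries, against 869 and 750 counts in the 67NR libraries and 642 and 403 counts in the control libraries. On the CPM scale this was 1.28 and 2.29 CPM in 4T1 medium, against 40.3 and 36.5 CPM in 67NR medium and 33.3 and 30.0 CPM in control medium. Both 4T1 libraries lay far below the other 4, and the 3 groups did not overlap in any pair.

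The mean Cmklr1 level was 1.79 ± 0.71 CPM in 4T1 medium, 38.4 ± 2.66 CPM in 67NR medium and 31.6 ± 2.39 CPM in control medium (SD, n = 2 each). Against control medium the log2 fold change in 4T1 medium was -4.11 (SE 0.172), a level 17.2-fold lower, or 5.8% of control. Against 67NR medium it was -4.38 (SE 0.166), 20.8-fold lower. Taken library by library, the fold by which 4T1 lay below control ran between 13.1 and 26, and that below 67NR between 16 and 31.3. In the order of all 15055 tested genes by log2 fold change, Cmklr1 was number 26 from the lowest end for 4T1 against control and number 38 for 4T1 against 67NR. Among the 10147 genes whose higher group reached 10 CPM it was number 6 in the comparison with control. These ranks describe a gene chosen for its low value. In the fit over all genes, 39.1% of genes passed an adjusted p of 0.05 for 4T1 against control, 19.2% of them lower and 19.9% higher as shares of all genes tested, and 67.4% had groups that did not overlap.

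In 67NR medium Cmklr1 was close to its control level. The log2 fold change against control was 0.27 (SE 0.106), a ratio of 1.21, and both 67NR libraries lay above both control libraries, with library ratios of 1.1 to 1.34. Groups without overlap were common in that comparison, at 67.6% of all genes tested, and 27.6% of genes passed the adjusted p of 0.05, 13% higher and 14.6% lower. For 4T1 against 67NR the share that passed was 43.4%, with 23.5% higher and 19.9% lower, and 70.1% had groups that did not overlap. The 3 comparisons share libraries, so they are not independent of each other. In RNA from a whole culture, fewer cells with the transcript and less transcript per cell cannot be told apart.

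**Figure D1:**
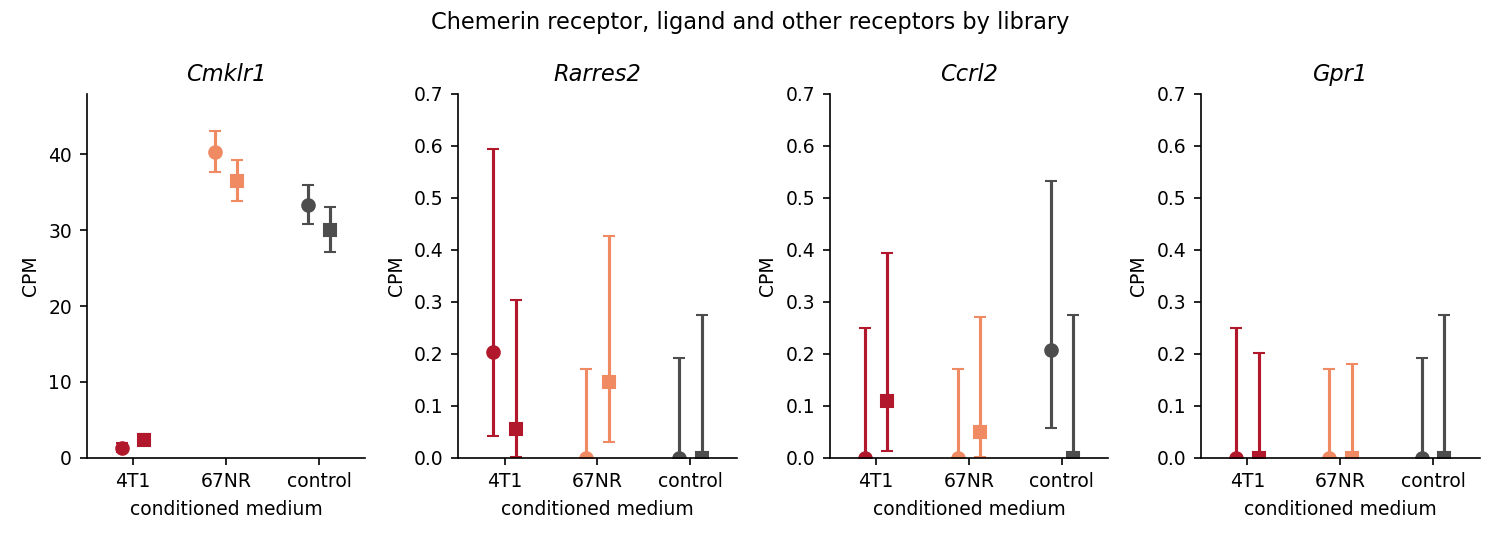
Level of Cmklr1, Rarres2, Ccrl2 and Gpr1 in CPM (y axis, linear; the first panel has its own scale) by conditioned medium (x axis), 1 point per library (circle, replicate 1; square, replicate 2) with its exact 95% Poisson interval, which covers counting error only. Cmklr1 lies at 1.28 and 2.29 CPM in 4T1 medium and at 30.0 CPM or more in the other 4 libraries, while the other 3 genes stay below 0.21 CPM everywhere.

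The spread within a medium was largest where Cmklr1 was lowest. The ratio of the higher to the lower library was 1.78 in 4T1 medium, 1.1 in 67NR medium and 1.11 in control medium. In 4T1 medium the exact 95% Poisson intervals of the libraries, 0.773 to 2.01 CPM and 1.65 to 3.09 CPM, overlapped. Of the 975 genes of similar level in 4T1 medium, 92.2% had a smaller log2 gap between the same libraries. That share was 84% of 2568 genes in 67NR medium and 79.1% of 2589 genes in control medium. Cmklr1 thus varied more than most genes of similar level in all 3 media. Counting error alone gave 95% intervals of 13.4 to 22.9 for the fold by which the summed 4T1 counts lay below control, and 16.2 to 27.4 for that below 67NR. Without 4T1 replicate 2 the log2 fold change against control was -4.63.

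Per length of exon, Cmklr1 stood at 1.32 ± 0.566 transcripts per 1e6 transcripts (TPM) in 4T1 medium, 27.9 ± 2.1 TPM in 67NR medium and 23.5 ± 1.82 TPM in control medium (SD, n = 2 each). Among the 14747 tested genes with an annotated length, that placed it at percentile 11.3 of expression in 4T1 medium, 68 in 67NR medium and 62.8 in control medium. It was thus a gene of middle rank in 67NR and control medium and of low rank in 4T1 medium.

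**Figure D2:**
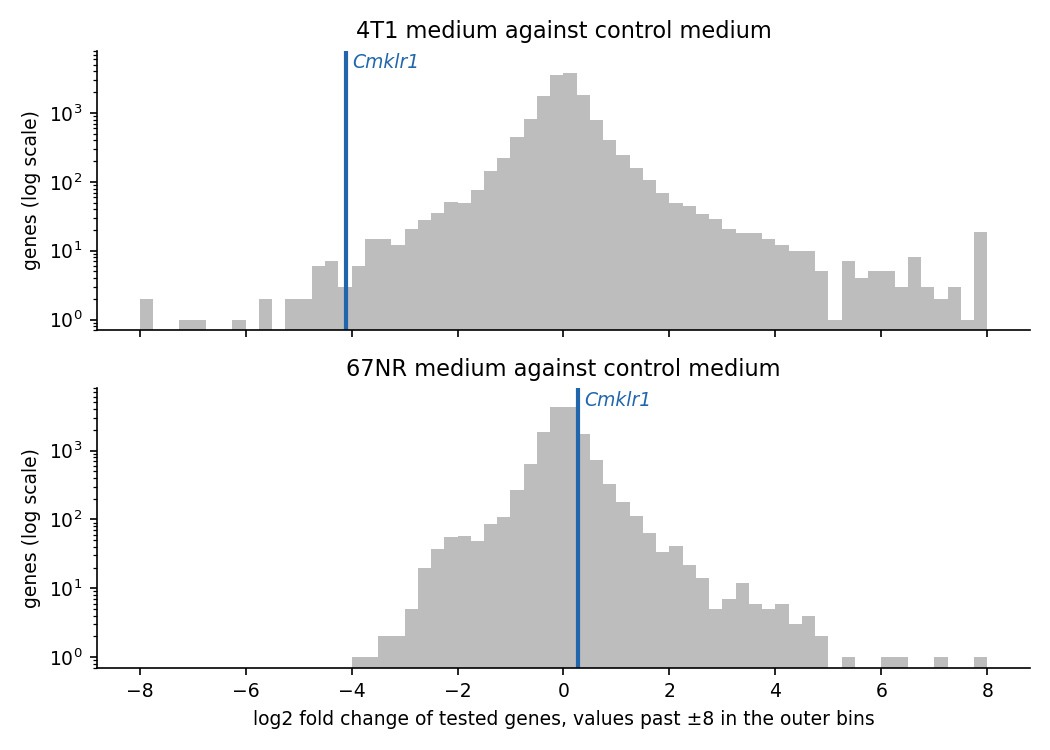
Number of tested genes (y axis, log scale) by log2 fold change (x axis), for 4T1 against control medium above and 67NR against control medium below; values past 8 in either direction are in the outer bins, and the blue line marks Cmklr1. The line stands at -4.11 in the lower tail for 4T1 medium. For 67NR medium it stands at 0.27, number 12035 of 15055 from the lowest end.

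Cmklr1 lies on the minus strand at chr5:113612354-113650426 (GRCm38, GENCODE M21), with 3408 bases of exon in 9 blocks. The antisense gene Gm15736 overlaps the span but shares 0 exon bases with it and had 0 counts in every library. The promoter that RefSeq gives for Cmklr1, 250 bases before to 50 bases after the start site, is shown because Cmklr1 is the one member whose level differed between media. It is at chr5:113643554-113643853 (GRCm38.p6, minus strand), inside the GENCODE span of the gene, and is written 5′ to 3′ with matches to the CCAAT box and to the E-box CAGCTG in capitals.
Cmklr1 promoter: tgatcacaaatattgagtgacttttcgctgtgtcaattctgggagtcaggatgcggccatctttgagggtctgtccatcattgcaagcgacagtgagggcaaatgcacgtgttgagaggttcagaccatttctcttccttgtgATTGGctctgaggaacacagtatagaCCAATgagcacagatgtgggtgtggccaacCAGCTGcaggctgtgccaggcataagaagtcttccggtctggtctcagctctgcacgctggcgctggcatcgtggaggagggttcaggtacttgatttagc

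CCAAT, searched on both strands as all motifs were, matched at 2 places. The first is on the opposite strand (ATTGG in the line above) and begins 107 bases before the start site, and the second begins 81 bases before it. CAGCTG, which reads the same on both strands, matched 51 bases before the start site. It is 1 form of the E-box, and other forms were not searched. CCAAT was found in 37.4% and CAGCTG in 16.3% of the 32851 promoters of the same length. TATAAA (13.6% of promoters), GGGCGG (35.7%), CCACCC (31.5%), the AP-1 letters TGANTCA (7.81%) and the retinoid receptor half-site AGGTCA (16.3%) had no match in this window. The same held for the NF-kB consensus (4.51%), the interferon response element (3.44%) and the C/EBP letters TTGCNNAA (10.8%). The motifs did not overlap each other, and a match describes letters only.

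Rarres2, the gene of the ligand, was close to the detection limit in all 3 media. It had 3 and 1 counts in the 4T1 libraries, 0 and 3 counts in the 67NR libraries, and 0 counts in both control libraries, 7 counts in all. The 0 counts of the control libraries allow a level of up to 0.0917 CPM (3 counts over both). The ratio of 4T1 to 67NR medium was 1.69, with an exact 95% counting interval of 0.287 to 11.6, and no difference was detectable at this depth. Rarres2 is at chr6:48569696-48572789 on the minus strand, and 892 of its 2656 exon bases (33.58%) are shared with Lrrc61 on the other strand. Whether reads were counted by strand is not stated in the labels, so the few Rarres2 counts cannot be told apart from reads of Lrrc61 over those bases. Lrrc61 itself had 6.08 and 6.75 CPM in 4T1 medium, 7.69 and 6.42 CPM in 67NR medium, and 6.49 and 5.87 CPM in control medium.

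Ccrl2, the non-signalling chemerin receptor (chr9:111054486-111057519, minus strand), also had 7 counts in all. They were 0 and 2 in the 4T1 libraries, 0 and 1 in the 67NR libraries, and 4 and 0 in the control libraries. Each medium thus held a library with no count. The ratio to control was 0.493 for 4T1 (0.0446 to 3.44) and 0.194 for 67NR (0.00394 to 1.96), both with exact 95% counting intervals that span 1. Gpr1, the further receptor (chr1:63182691-63214543, minus strand), had 0 counts in all 6 libraries, which allows up to 0.0278 CPM over the 6 together (3 counts). In control medium Cmklr1 therefore had 1045 counts in all where Ccrl2 had 4 and where Rarres2 and Gpr1 had 0.

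The chemerin precursor needs proteases, and most of those on a list of 18 chemerin-processing enzymes had few or no counts here. Of the 18, 9 had 0 counts in all libraries, including Plg, the gene of plasminogen, Elane, the gene of neutrophil elastase, Ctsg and Ctss, the genes of cathepsins G and S, and Cpn1 and Cpn2, the genes of carboxypeptidase N. Ctsk, the gene of cathepsin K, which can activate chemerin, had 22 counts over the 6 libraries. The 3 that were tested were the plasminogen activators Plau and Plat and cathepsin L, Ctsl. Counts of list genes, here and below, stand beside the shares of all tested genes. Against control, 19.9% of all tested genes rose and 19.2% fell in 4T1 medium, and 13% rose and 14.6% fell in 67NR medium.

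Plau had 35.1 and 43.6 CPM in 4T1 medium, 68.5 and 75.1 CPM in 67NR medium, and 59.9 and 61.5 CPM in control medium. It fell in 4T1 medium by 0.62 on the log2 scale against control (edgeR adjusted p = 0.000262), and its difference in 67NR medium was 0.24 (edgeR adjusted p = 0.0701). That difference passed the threshold without 4T1 replicate 1 or 2 (edgeR adjusted p = 0.00773 and 0.00798), with only the 4 libraries compared (0.00757), with the replicate block (0.0333) and with no filter (0.032). Ctsl had 560 and 492 CPM in 4T1 medium, 338 and 350 CPM in 67NR medium, and 344 and 343 CPM in control medium. It rose in 4T1 medium by 0.61 (edgeR adjusted p = 1.79e-05), and both 4T1 libraries stood above the other 4. Plat had 154 and 160 CPM in 4T1 medium, 164 and 158 CPM in 67NR medium, and 134 and 123 CPM in control medium, which is a rise of 0.28 and of 0.32 against control (edgeR adjusted p = 0.005 and 0.00343). Without control replicate 2 neither Plat call held (edgeR adjusted p = 0.074 in 4T1 and 0.0626 in 67NR medium), and without 67NR replicate 1 the call for 67NR was lost (edgeR adjusted p = 0.0587). Plau and Ctsl also differed between 4T1 and 67NR medium, by -0.86 and 0.61 (edgeR adjusted p = 9.52e-06 and 1.33e-05).

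Of 9 inhibitors of these proteases, 6 were tested, and in 4T1 medium 3 rose and 3 fell against control. Of the 3 that rose, Slpi and Serping1 are not among the genes of the authors' filtered table, where 1 rose. Serpine2, the gene of protease nexin 1, averaged 291 ± 3.42 CPM in 4T1 medium and 97.9 ± 5.46 CPM in control medium (SD, n = 2 each), a log2 change of 1.58 (edgeR adjusted p = 1.07e-09). It rose in 67NR medium too, by 1.46 (edgeR adjusted p = 2.74e-08), and 4T1 and 67NR differed by 0.11 (edgeR adjusted p = 0.17). Slpi, an inhibitor of elastase, had 137 counts in the 4T1 libraries and 3 in the control libraries, a ratio of 45.1 (exact 95% counting interval 15.1 to 221).

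All 6 genes on the list of plasmin and cathepsin receptors or cofactors were tested, and in 4T1 medium 2 rose and 3 fell. With DESeq2, without 4T1 replicate 2 or without either control library 1 rose. Plaur, the urokinase receptor, averaged 30 ± 4.82 CPM in 4T1 medium and 15 ± 1.55 CPM in control medium, a rise of 0.98 (edgeR adjusted p = 3.56e-05). S100a10 and Anxa2, whose products together hold plasminogen at the cell surface, fell by 0.99 and 0.59 (edgeR adjusted p = 2.39e-07 and 7.6e-06). Thbd, the gene of thrombomodulin, fell by 1.11 (edgeR adjusted p = 2.3e-07). It stands on the list although its product binds thrombin, not plasmin or a cathepsin. In 67NR medium 2 of the 6 fell against control. Eno1 averaged 217 ± 10.2 CPM in 67NR medium and 331 ± 3.65 CPM in control medium (edgeR adjusted p = 1.12e-05). The other, Plaur, was lower by a log2 value of -0.54, and the call was lost without control replicate 1 or either 67NR library (edgeR adjusted p = 0.128, 0.0679 and 0.0537).

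**Figure D3:**
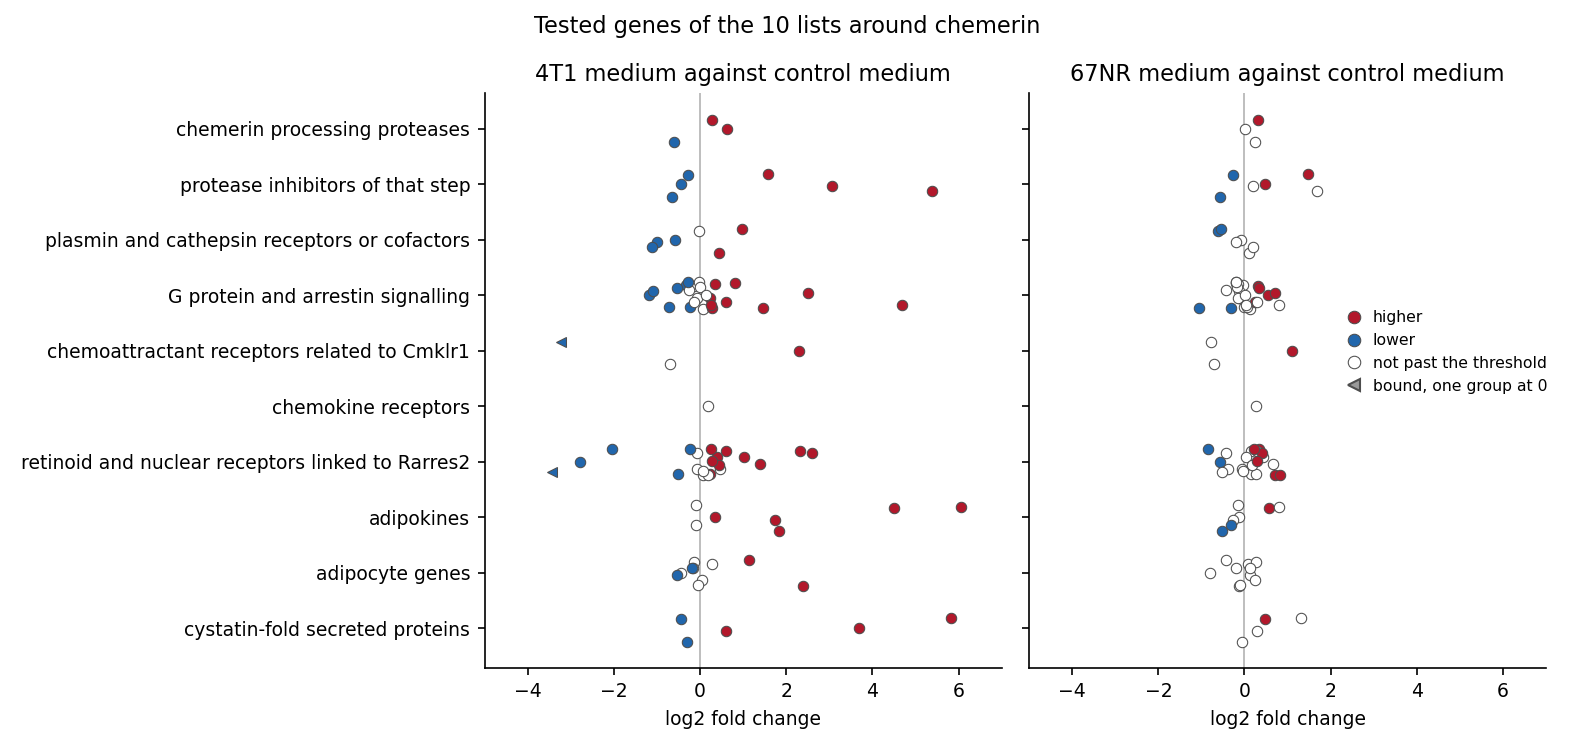
Log2 fold change (x axis) of each tested gene of the 10 lists (rows), for 4T1 against control medium on the left and 67NR against control medium on the right; colour marks genes past an edgeR adjusted p of 0.05, and a triangle marks the bound for a gene with 0 counts in a group (Camp, with 0 counts in 67NR and 2 in control medium, is not drawn on the right). Genes lie on both sides of 0 in most rows. Over all rows together, the extreme values on the right stay closer to 0 than those on the left. The lowest adipocyte value, -0.792 on the right and -0.544 on the left, goes the other way. So does the 1 chemokine receptor, at 0.276 on the right and 0.188 on the left.

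CMKLR1 signals through inhibitory G proteins and arrestins. Of 28 genes on the list of G proteins, arrestins, receptor kinases and RGS proteins, 24 were tested. In 4T1 medium 9 rose and 7 fell against control, with a median log2 fold change of -0.0177, where the median of all tested genes was 0.0114. Gnai2, an inhibitory alpha subunit, averaged 308 ± 0.153 CPM in 4T1 medium and 386 ± 5.87 CPM in control medium, and it fell by 0.32 (edgeR adjusted p = 0.000853). Gnao1, an alpha subunit of the same family, went the other way, with 209 and 218 CPM in 4T1 medium and 142 and 141 CPM in control medium. Its log2 fold change was 0.55 to 0.62 over the alternatives run. Gnai3 had a log2 difference of -0.08 and the arrestin Arrb2 of 0.07, neither past the threshold (edgeR adjusted p = 0.384 and 0.657).

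RGS proteins speed up GTP hydrolysis by G protein alpha subunits. Of the 5 RGS genes on the list 3 rose in 4T1 medium against control, Rgs3 fell by 0.54 (edgeR adjusted p = 0.00317), and Rgs5, with 18 counts in all, was not tested. Rgs16 averaged 17.4 ± 1.19 CPM in 4T1 medium and 0.672 ± 0.00425 CPM in control medium, a log2 change of 4.68 (edgeR adjusted p = 1.46e-09). Rgs2 averaged 31 ± 5.06 CPM in 4T1 medium and 5.43 ± 0.107 CPM in control medium, a change of 2.51 (edgeR adjusted p = 1.75e-08). Rgs4 rose in 4T1 medium by 1.47 and fell in 67NR medium by 1.07 (edgeR adjusted p = 2.62e-06 and 5e-04). Adcy7, an adenylate cyclase, averaged 2.31 ± 0.204 CPM in 4T1 medium and 5.3 ± 0.139 CPM in control medium, and fell by 1.19 (edgeR adjusted p = 0.000304). In 67NR medium 5 genes of the list rose and 3 fell against control, and with any 1 of the 67NR or control libraries left out these counts were 1 and 1 to 2. Without either 4T1 library, or with only the 67NR and control libraries in the fit, 5 rose and 6 fell, and 5 rose and 5 fell with the replicate block, with no filter or with library totals alone. DESeq2 called 3 higher and 2 lower.

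Receptors related to CMKLR1 mostly had few or no counts. Of 16 chemoattractant and atypical chemokine receptors, 7 had 0 counts, Fpr2, C5ar1 and Gpr33 among them, and 3 were tested. Ackr3, an atypical receptor that scavenges CXCL12, had 55.4 and 59.9 CPM in 4T1 medium, 28.3 and 22.4 CPM in 67NR medium, and 12.8 and 10.6 CPM in control medium. The 3 media did not overlap, and Ackr3 rose by 2.29 in 4T1 and 1.10 in 67NR medium against control (edgeR adjusted p = 1.26e-08 and 3.97e-05), with 1.19 between the tumour media (edgeR adjusted p = 1.68e-06). Per length, Ackr3 had a mean of 43.2 TPM in 4T1 medium, where Cmklr1 had 1.32 TPM, and 8.81 TPM in control medium, where Cmklr1 had 23.5 TPM. The order of those 2 receptors by level was therefore the opposite in 4T1 and in control medium.

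Ackr4, the atypical receptor for CCL19 and CCL21, had 0 counts in both 4T1 libraries, 5 and 16 in the 67NR libraries, and 14 in each control library. It was at least 9.46-fold lower in 4T1 than in control medium, and at least 5.51-fold lower than in 67NR medium (against 3 counts over the 4T1 libraries; edgeR adjusted p = 0.00181 and 0.0064). C3ar1, the C3a receptor, stayed near 1 CPM and had a log2 difference of -0.69 in 4T1 and -0.72 in 67NR medium against control (edgeR adjusted p = 0.144 and 0.139). Of 18 conventional chemokine receptors 11 had 0 counts, and the one tested, Ccr10, had differences of 0.19 and 0.28 against control (edgeR adjusted p = 0.738 and 0.623).

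Rarres2 is known to respond to retinoids and to nuclear receptors of fat and bile acid metabolism. Of 27 genes on that list 21 were tested, and 10 rose and 5 fell in 4T1 medium against control. Without control replicate 1 these counts were 6 and 3, without control replicate 2 they were 5 and 3, and DESeq2 called 6 higher. Aldh1a1, which makes retinoic acid, averaged 56.4 ± 4.31 CPM in 4T1 medium and 390 ± 24.7 CPM in control medium, a log2 change of -2.79 (edgeR adjusted p = 3.28e-11). Dhrs3, which reduces retinal to retinol, averaged 11.8 ± 0.857 CPM in 4T1 medium and 48.5 ± 0.00678 CPM in control medium, a log2 change of -2.04 (edgeR adjusted p = 1.85e-09). Aldh1a3, a related enzyme, rose by 2.59 (edgeR adjusted p = 2.26e-05), to 4.88 ± 0.272 CPM in 4T1 medium, against 0.843 ± 0.384 CPM in control medium. Stra6, the retinol-binding protein receptor, had 0 counts in the 4T1 libraries and 32 in the control libraries, at least 10.8-fold lower in 4T1 medium (edgeR adjusted p = 0.000332). Cebpb rose by 2.31 (edgeR adjusted p = 2.94e-10).

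In 67NR medium 6 genes of the retinoid list rose and 2 fell against control, and without any 1 of the 67NR or control libraries 2 to 3 rose. Aldh1a1 and Dhrs3 were the 2 that fell, Dhrs3 by 0.84 (edgeR adjusted p = 6.38e-06). Rarres1, which shares the name but not the gene family of Rarres2, rose by 0.61 in 4T1 medium (edgeR adjusted p = 0.000497).

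Among 16 adipokines, 7 were tested, and 5 rose in 4T1 medium against control, with a median log2 fold change of 1.73. Adipoq, the gene of adiponectin, had 0 counts. Angptl4, an inhibitor of lipoprotein lipase, averaged 45.3 ± 2.45 CPM in 4T1 medium and 1.98 ± 0.0653 CPM in control medium, a change of 4.51 (edgeR adjusted p = 3.44e-11). Cxcl5, a neutrophil chemokine, averaged 55.6 ± 7.62 CPM in 4T1 medium and 0.858 ± 0.259 CPM in control medium, a change of 6.06 (edgeR adjusted p = 4.99e-11). Apln and Grem1, the genes of apelin and gremlin 1, rose by 1.83 and 1.73 (edgeR adjusted p = 1.77e-07 and 7.12e-06). In 67NR medium 1 adipokine rose and 2 fell against control, and with a 67NR or control library left out at most 1 gene was called.

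Of 14 adipocyte genes 10 were tested, and 2 rose and 2 fell in 4T1 medium, where 39.1% of all tested genes were called. Fewer adipocyte genes were called with a control library or 4T1 replicate 1 left out. Dgat2, which makes triglyceride, averaged 16.3 ± 0.78 CPM in 4T1 medium and 3.13 ± 0.309 CPM in control medium (edgeR adjusted p = 6.13e-08), and Fasn, fatty acid synthase, fell by 0.54 (edgeR adjusted p = 0.000182). Chemerin shares the cystatin fold, and of 12 genes on a list of cystatin-fold proteins 5 were tested, of which 3 rose and 2 fell in 4T1 medium. Without control replicate 2, 1 fell, and among the genes of the filtered table, which holds neither Kng1 nor Camp, 1 rose. Kng1, the gene of kininogen 1, had 186 counts in the 4T1 libraries and 3 in the control libraries, a ratio of 61.2 (exact 95% counting interval 20.6 to 299). Cst3, cystatin C, fell by 0.44 in 4T1 medium and rose by 0.47 in 67NR medium (edgeR adjusted p = 0.000797 and 0.000714).

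Taken as 1 set without repeats, the 10 lists held 162 genes, of which 84 were tested. In 4T1 medium 36 rose and 23 fell against control, which is 70.2% of the 84 beside 39.1% of all tested genes, and in 67NR medium 16 rose and 11 fell, 32.1% beside 27.6%. For 4T1 against 67NR 29 rose and 25 fell, 64.3% beside 43.4%. The lists were chosen with earlier results of these data known, so these shares are a description and no test of the lists. By list, the median log2 fold change in 4T1 medium against control was 0.643 for the protease inhibitors, -0.308 for the plasmin and cathepsin receptors, 0.23 for the retinoid list, -0.0953 for the adipocyte genes and 0.608 for the cystatin-fold proteins. In 67NR medium these medians were 0.337, -0.139, 0.175, -0.0037 and 0.284. For all 84 genes the medians of the 3 comparisons were 0.0663, 0.0129 and 0.0874, beside 0.0114, 0.00321 and 0.0251 over all tested genes. With each library left out in turn, 6 to 20 genes of the lists rose and 5 to 15 fell in 67NR medium against control, the low ends without 67NR replicate 1.

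Around Cmklr1, 9 tested genes were taken, up to 5 a side within 1e+06 bases, and 4 of them fell in 4T1 medium against control, where 19.2% of all genes fell. All 9 had log2 fold changes below 0 there, between -4.81 and -0.09, with a median of -0.54, beside 0.0114 over all tested genes. Of the 9, 5 were not past the threshold. Gm43247 and Crybb3 averaged below 1 CPM in every medium, and Gm3511 lies within the span of Sart3, so the 9 are not all separate loci. The nearest on the lower side, Wscd2, lies 22629 bases away on the plus strand (chr5:113490333-113589725). It had 0 and 2 counts in the 4T1 libraries, 42 and 37 in the 67NR libraries, and 32 and 29 in the control libraries. By summed counts it was 30.9-fold lower in 4T1 than in control medium (exact 95% counting interval 8.2 to 261; edgeR adjusted p = 5.2e-05). In 67NR medium Wscd2 had a log2 difference of -0.0033 from control (edgeR adjusted p = 0.996).

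On the higher side the nearest tested genes, Ficd and Sart3, had log2 differences of -0.09 and -0.19 in 4T1 medium (edgeR adjusted p = 0.618 and 0.0709). Tmem119, 143303 bases away on the strand of Cmklr1, had 17.8 and 14.5 CPM in 4T1 medium, 66.3 and 63.7 CPM in 67NR medium, and 40.4 and 37.9 CPM in control medium. It fell by 1.29 in 4T1 medium and rose by 0.73 in 67NR medium against control (edgeR adjusted p = 4.48e-07 and 4.74e-05). The other calls among the 9 were 2900026A02Rik, at -0.72 (edgeR adjusted p = 5.83e-06), and Crybb3, at -1.70 (edgeR adjusted p = 0.0227). The Crybb3 call was lost without control replicate 2 or either 4T1 library (edgeR adjusted p = 0.139, 0.0652 and 0.0822) and with DESeq2 (adjusted p = 0.0929).

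**Figure D4:**
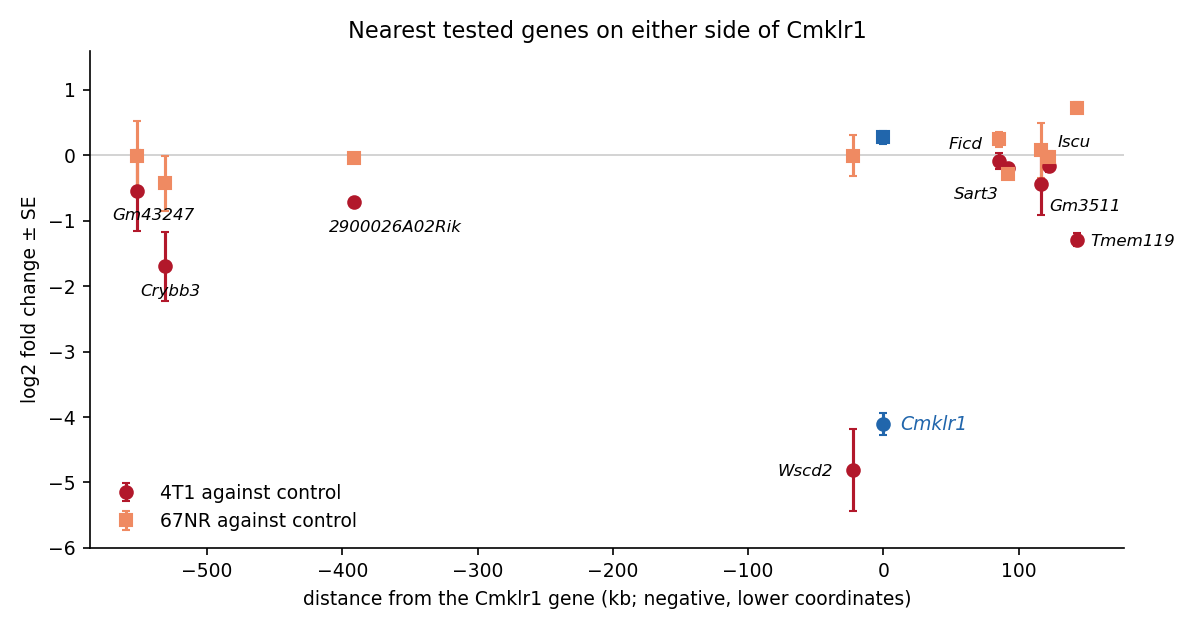
Log2 fold change ± SE (y axis) of Cmklr1, in blue, and of the 9 tested genes nearest to it, by distance from the gene in kb (x axis); circles, 4T1 against control medium, squares, 67NR against control medium. Wscd2 and Cmklr1 are the 2 genes below -4 in 4T1 medium. All 9 neighbours lie below 0 in 4T1 medium, and 5 of them were not past an edgeR adjusted p of 0.05.

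The other loci had expressed neighbours, although the members themselves were near or at 0. Of 10 tested genes around Rarres2, 2 rose in 4T1 medium against control, Repin1 by 0.60 and Tmem176b by 0.81 (edgeR adjusted p = 0.00088 and 2.89e-07), where 19.9% of all tested genes rose. Around Ccrl2, 1 of 8 rose, Als2cl by 2.86, and 1 fell, Ccdc12 by 0.57 (edgeR adjusted p = 0.000777 and 0.00272). Without 4T1 replicate 2, 2 around Ccrl2 fell. Around Gpr1, 2 of 10 rose and 1 fell, where 19.9% of all tested genes rose and 19.2% fell. The number that rose was 0 without control replicate 1, and 1 without 4T1 replicate 2 or with DESeq2, and 2 fell without 4T1 replicate 1. Eef1b2, a translation elongation factor gene that ends 2205 bases from Gpr1, averaged 740 ± 78.6 CPM in 4T1 medium and 777 ± 32.8 CPM in control medium.

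The genes whose profile over the 6 libraries was most like that of Cmklr1 were found by the Euclidean distance between log2(CPM + 1) profiles, each centred on its own mean, among 10274 genes of at least 10 CPM in their highest group. The median distance of these genes from Cmklr1 was 4.35. The closest were Itgbl1 (0.653), an integrin-like secreted protein, Prr5l (0.723), a partner of mTORC2, Tnc (0.723), the matrix protein tenascin C, Postn (0.729), the matrix protein periostin, and Thbs1 (0.783), thrombospondin 1. They were picked by their values, so what follows is a description.

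Itgbl1 averaged 0.502 ± 0.137 CPM in 4T1 medium, 18.9 ± 0.485 CPM in 67NR medium and 11.1 ± 0.331 CPM in control medium. Postn averaged 62.8 ± 1.23 CPM in 4T1 medium, 663 ± 68 CPM in 67NR medium and 511 ± 24.8 CPM in control medium. Both shared with Cmklr1 the order 67NR, control, 4T1 from the highest level to the lowest. Tnc averaged 16.8 ± 3.07 CPM in 4T1 medium, 179 ± 4.45 CPM in 67NR medium and 232 ± 19.1 CPM in control medium, so that control was the highest, as it was for Thbs1. The log2 fold changes of the 5 in 4T1 medium against control ran between -4.42 for Itgbl1 and -3.03 for Postn, beside -4.11 for Cmklr1.

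**Figure D5:**
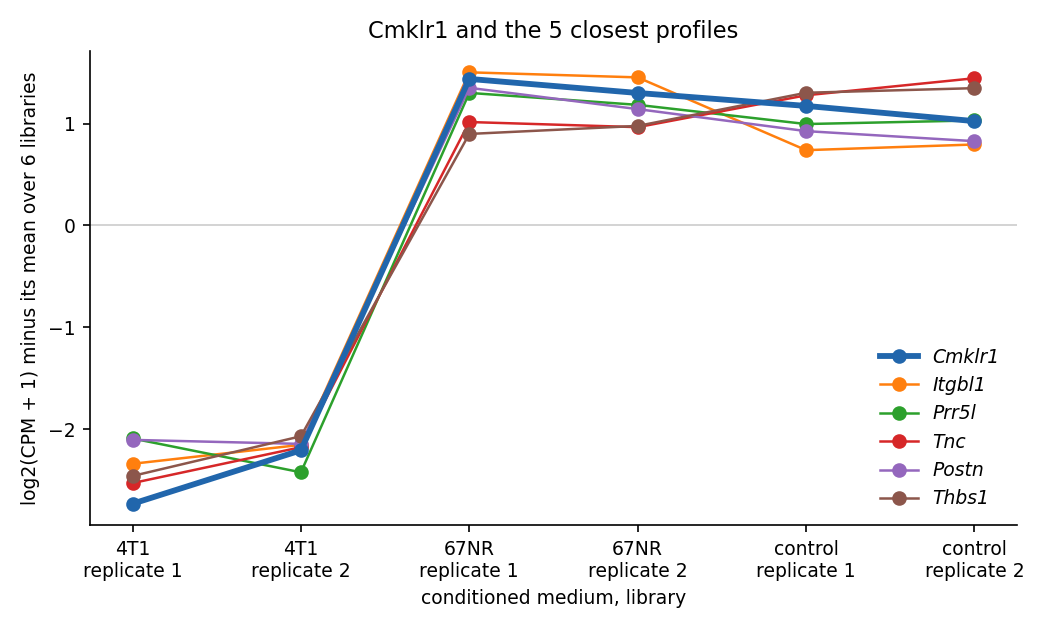
Profiles of Cmklr1 (thick blue line) and of the 5 genes closest to it, as log2(CPM + 1) minus the gene's own mean over the 6 libraries (y axis), by library (x axis); lines join the points of 1 gene. All 6 genes are below their mean in both 4T1 libraries and above it in the other 4.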

How the data were processed

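The libraries were directional, made from poly(A) RNA (500 ng of total RNA as input) and run on a NextSeq500, as stated in the labels' protocols. The authors deposited raw counts per gene symbol in an unfiltered table of 55367 symbols, used here, and a filtered one of 14629. Per the submitters' processing notes, Subread was used on mm10 and DESeq2 1.32.0 was run. The aligner is not given in the sources used here, nor is the strand setting. All columns were used.

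Low counts were removed with filterByExpr (edgeR 4.0.16; at least 10 counts, 15 in total). Scaling was by trimmed mean of M-values. The quasi-likelihood F test was fitted over all 6 libraries in R 4.3.3 with prior count 0.125 and a Benjamini-Hochberg threshold of 0.05. There were 3 residual and 9.62 prior degrees of freedom, and the biological coefficient of variation was 5.81%. The standard error is the absolute log2 fold change over the square root of F. CPM uses the scaled totals of tested genes. TPM and positions use GENCODE M21 (GRCm38, the assembly of mm10), which held 53365 of the symbols, and promoters come from RefSeq GRCm38.p6. Figures used matplotlib 3.10.9. Where a group had 0 counts, folds are bounds against 3 counts over the group. Intervals and floors cover counting error only, since reads without molecular identifiers are not independent molecules. The code was tested on simulated counts.

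The members, the 10 lists and 4 marker lists were chosen with earlier results of these data known. From each list the rule named up to 4 called genes of the largest change with at least 1 CPM and no overlap, all tested proteases and chemoattractant receptors, the nearest neighbours and the 5 closest profiles. Gnai2, Gnai3, Gnao1, Arrb2, Rgs3, Rgs5, Lyz2, Csf1r, Cd68, Cdh1, Emcn, Kdr, Tek, Stra6, Ccr10, Adipoq, Ctsk, Sart3, Gm3511, Gm43247, Tmem119, 2900026A02Rik, Crybb3, Tmem176b, Ccdc12 and the genes listed at 0 counts were added after their values were seen. Alternatives were library totals alone, size factors of DESeq2, no filter, 10 counts in all libraries of a medium, the filtered table's genes, limma-voom (limma 3.58.1), the DESeq2 1.42.0 Wald test, the 4 libraries compared, the replicate block, and each library left out. Replicates of a medium differed by more than sampling noise (chi-square per degree of freedom 4.04 to 7.88). Some genes that the rule names are not reported here.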

Additional observations from a re-analysis of the deposited data

How the results depend on the processing

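Cmklr1 kept its direction in every comparison under all alternatives run. With each library left out in turn, its log2 fold change was -4.63 to -3.79 for 4T1 against control, -4.90 to -4.07 for 4T1 against 67NR and 0.20 to 0.36 for 67NR against control. Over the same fits the genes called higher numbered 1895 to 3030 for 4T1 against control (2995 with all libraries) and 1032 to 2541 for 67NR against control (1951), and those called lower 1175 to 2820 for 67NR against control (2199). Genes of the 10 lists called for 67NR against control numbered 6 to 20 higher (16 with all libraries) and 5 to 15 lower (11). A medium left with 1 library is assumed there to vary like the others. Of the single list and neighbour genes, the call or its absence held in 5106 of the gene and alternative pairs, was lost in 229 and was gained in 80, and none reversed. Under each scaling tried, the median of all genes moved by less than 0.1.

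Replicate numbers are shared between media, and their deviations correlated at 0.0685, 0.00508 and -0.0406 over 15055 genes, which shows no sign of pairing. With 2 libraries a medium, these values cannot tell whether libraries of the same number shared a batch. With the replicate block, 3091 genes were called higher and 2966 lower for 4T1 against control, 2063 and 2319 for 67NR against control, and 3618 and 3050 for 4T1 against 67NR, and Cmklr1 had -4.10, 0.28 and -4.38.

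Depth limits Rarres2, Ccrl2 and Gpr1: with 7, 7 and 0 counts, no difference between media was detectable.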
